A study of Homo sapiens with 8 samples.

Results

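Semaphorins, plexins, neuropilins, ephrins and Eph receptors were examined in SW480, a cell line from a human colorectal adenocarcinoma. The members were all protein-coding genes whose symbol names a semaphorin of classes 3 to 7, a plexin, a neuropilin, an ephrin or an Eph receptor. That rule found 53 of the 58735 genes counted, of which 19951 were protein-coding: 20 semaphorins, 9 plexins, 2 neuropilins, 8 ephrins and 14 Eph receptors. The rule used names only and no measured value.

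Semaphorins are secreted, membrane-spanning or lipid-anchored ligands that guide growing axons and migrating cells. They act through plexins, and most secreted ones need a neuropilin as the part of the receptor that binds them. Ephrins stay on the cell surface and signal to Eph receptor tyrosine kinases on touching cells. In the mouse intestine EphB2, EphB3 and ephrin-B1 keep crypt cells sorted by position, and the EphB genes there are targets of Wnt/β-catenin signalling.

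RNA-seq libraries came from SPOCK1 cells, which stably overexpressed FLAG-tagged SPOCK1, and from vector control cells, with 4 libraries in each group. SPOCK1 (testican-1) is a secreted proteoglycan, and the series title concerns its link to Wnt/β-catenin signalling in colorectal cancer. Per the labels' protocols the SW480 cells were infected with lentivirus and selected with puromycin until overexpression was seen on a Western blot. Nothing in the labels tells whether a group's 4 libraries came from 4 cultures or infections or from 1. What the p-values weigh is thus library-to-library spread, possibly all technical, and the effect of SPOCK1 cannot be told apart from differences between the selected cell populations.

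SPOCK1 itself had 6719 to 9712 counts in SPOCK1 libraries and 0 to 6 in vector libraries, so the construct followed the labels in all 8. Total counts were 35643585 to 42812951 in SPOCK1 libraries and 36390186 to 41343049 in vector libraries. Counts of ribosomal RNA genes, mitochondrially encoded ones included, took 0.560% to 0.670% of SPOCK1 libraries and 0.696% to 0.738% of vector libraries. These ranges did not overlap, and the part of this difference in the results was not tested. Of 12 colon epithelium markers, 6 averaged at least 1 CPM (CPM here is a gene's counts scaled to a common library size), and their sum was 14500 to 16200 CPM in SPOCK1 libraries and 12900 to 15800 CPM in vector libraries. Most of that sum came from KRT8 (means of 8812 CPM in SPOCK1 cells and 8287 CPM in vector cells) and KRT18 (4719 and 4518 CPM). KRT20, CDX1, CDH17, LGALS4 and CEACAM5, also among the 12 markers, were near 0. The 9 fibroblast markers summed to 1.06 to 1.83 CPM in SPOCK1 libraries and 1.16 to 2.29 CPM in vector libraries, with DCN, LUM and POSTN at 0. The 8 endothelial markers summed to 3.14 to 3.96 CPM in SPOCK1 libraries and 2.72 to 3.90 CPM in vector libraries, with CDH5, KDR and EMCN at 0. The 8 leukocyte markers summed to 1.32 to 2.14 CPM in SPOCK1 libraries and 1.68 to 2.56 CPM in vector libraries, and the 8 neuron and glia markers to 31.8 to 37.4 CPM in SPOCK1 libraries and 32.3 to 44.1 CPM in vector libraries.

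Of the members with RNA in these cells, 4 differed past the test. NRP1 was higher in SPOCK1 cells, and SEMA6B, SEMA4G and EFNB3 were lower. Of the 53 members, 40 passed the filter on low counts and were tested among 15790 genes with edgeR's quasi-likelihood test, with p-values adjusted by Benjamini-Hochberg over all genes tested and a threshold of 0.05. Higher calls were 1 of 40 members (2.5%), beside 0.247% of all genes tested. Lower calls were 3 of 40 members (7.5%), beside 0.798% of all genes tested. Together these were 4 of 40, beside 1.04% of all genes tested, and the other 36 did not pass. DESeq2 called 1 member higher, beside 0.417% of the 28779 genes to which it gave a p-value, and 4 lower, beside 0.896%. Those 28779 genes include low-count genes outside the 15790, so these shares do not compare directly with those above.

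The groups did not overlap for 6 members that were lower in every SPOCK1 library (15.0% of the 40, beside 4.8% of all genes tested) and for 1 that was higher (2.5%, beside 3.43%), or 7 of 40 in either direction, beside 8.23%. Those lower were SEMA6B, SEMA4G, SEMA3A, EFNB3, EFNA3 and EPHA1, and the 1 higher was NRP1. Of the 40, 30 had a log2 fold change below 0 (75.0%, beside 50.8% of all genes tested). The median was -0.14, beside -0.0042 over all genes tested. The members are GC-rich, with a median GC content of 60.3%, beside 49.4% over all genes tested. With per-library offsets for GC content and length, 23 of 40 were below 0, beside 7806 of all 15790 genes tested. The members' median was then -0.06, beside 0.0024 over all genes tested. The median of the members thus lay nearer 0 with offsets for GC content and length together, and with these EPHB6 and SEMA3A also passed the threshold. That made 1 higher call, beside 1.3% of all genes tested, and 5 lower calls, beside 1.88%.

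**Figure D1:**
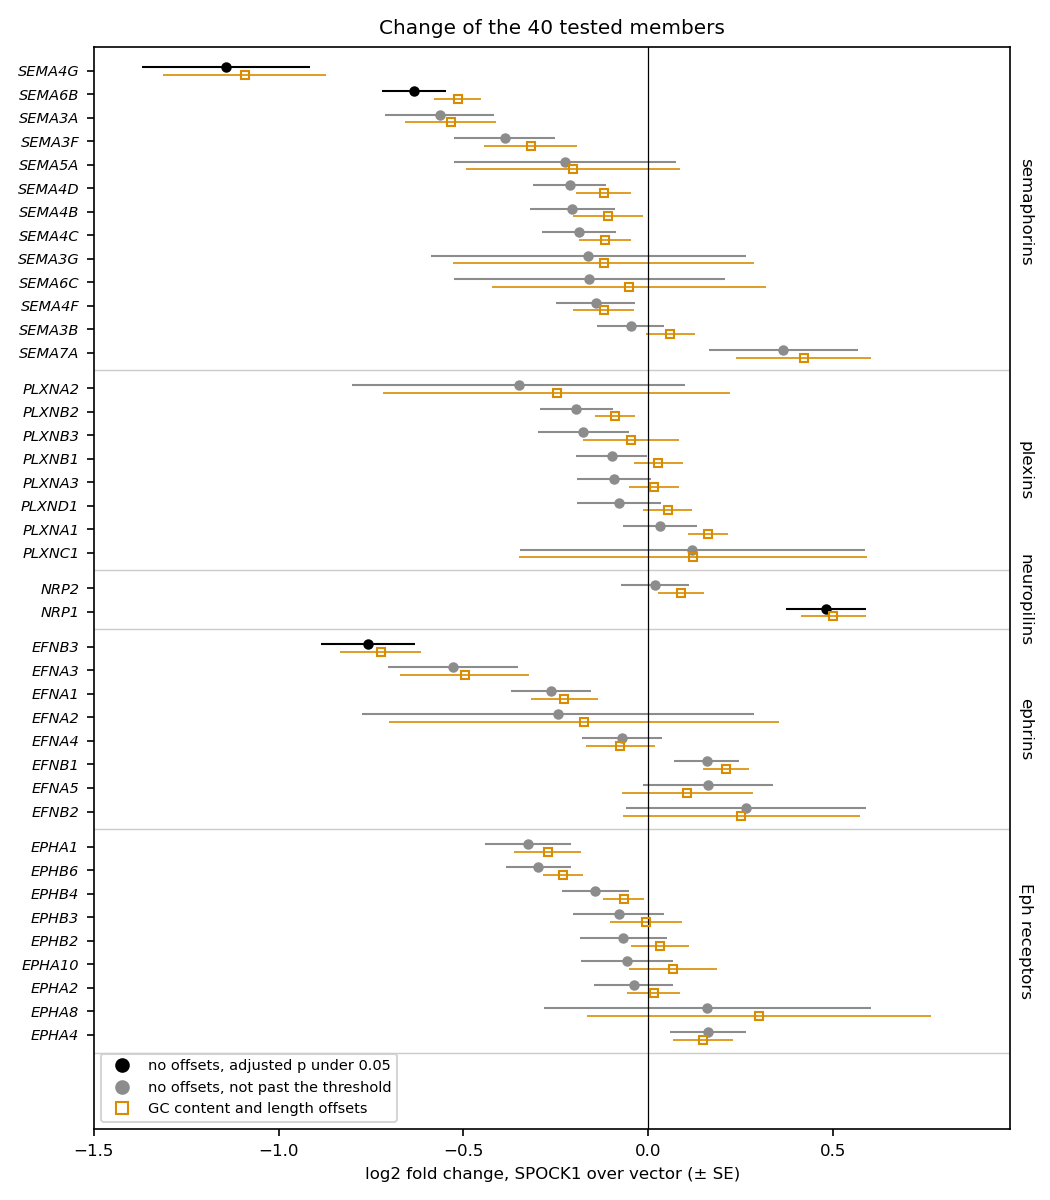
Log2 fold change of SPOCK1 over vector cells, with its standard error, for the 40 tested members by family, without offsets (circles, black where the adjusted p was under 0.05) and with offsets for GC content and length (open squares). NRP1 stands to the right and SEMA6B, SEMA4G and EFNB3 to the left, and the squares lie to the right of the circles for most plexins.

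Of the members, 28 averaged at least 1 CPM per kilobase of exon in vector cells. Ephrin-B1 (EFNB1) had the highest level of all, and EPHA2, PLXNB2, EPHB6, EPHB4 and PLXNA1 came next. At 0 counts in all 8 libraries were SEMA3C, SEMA3E, EPHA3, EPHA5, EPHA6 and EPHA7, which allows up to 0.00986 CPM over the 8 libraries (3 counts, counting error only). This bound takes counts as independent fragments, which they may not be, and it would then be higher. SEMA6A had 44 counts over the 8 libraries, SEMA4A 18, PLXNA4 10, EPHB1 9, SEMA6D 4, SEMA5B 4 and SEMA3D 2. In bulk RNA, fewer cells with a transcript and less of it per cell cannot be told apart.

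**Figure D2:**
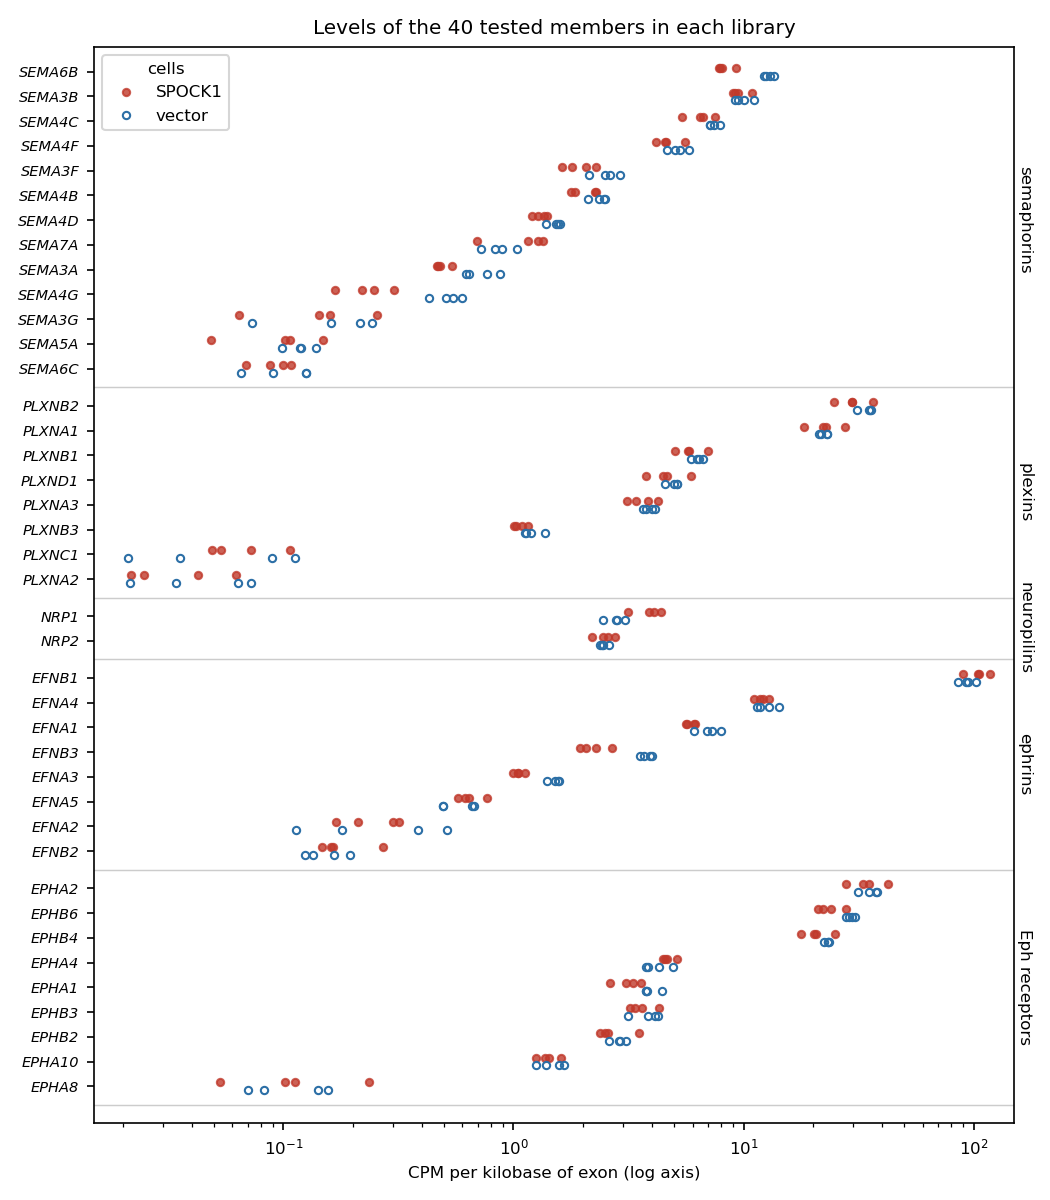
Level of each of the 40 tested members in every library, in CPM per kilobase of exon on a log axis, with SPOCK1 libraries as filled points above vector libraries as open points. EFNB1 lies near 100 in both groups, and PLXNA2, PLXNC1, SEMA6C and EPHA8 lie about or below 0.1.

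SEMA6B was the semaphorin with the highest level per length in vector cells and fell in SPOCK1 cells. It encodes a membrane-spanning semaphorin that binds plexin-A4 and plexin-A2 in the mouse. SEMA6B (ENSG00000167680, GRCh38 chr19:4542593-4559808, minus strand, 4412 bases of exon) had 34.5, 35.6, 34.9 and 41.0 CPM in SPOCK1 libraries 1 to 4, against 55.0, 59.9, 54.3 and 57.4 CPM in vector libraries 1 to 4. Every SPOCK1 library lay below every vector library. The means were 36.5 ± 3.05 CPM in SPOCK1 cells and 56.7 ± 2.55 CPM in vector cells (SD, n = 4 each). SEMA6B fell by 35.6%, a log2 fold change of -0.63 ± 0.09 (SE), with an adjusted p of 0.001 by edgeR.

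SEMA6B made up 22.2% to 23.5% of the CPM per kilobase summed over the semaphorins in SPOCK1 libraries, against 28.1% to 30.5% in vector libraries. Its known mouse receptors were scarce, since PLXNA4 had 10 counts in all and PLXNA2 averaged 0.522 ± 0.256 CPM in SPOCK1 cells and 0.661 ± 0.331 CPM in vector cells. The summed level of all semaphorins was 33.2 to 41.8 CPM per kilobase in SPOCK1 libraries and 42.4 to 46.2 CPM per kilobase in vector libraries. With the GC content and length offsets the log2 fold change of SEMA6B was -0.52 ± 0.06 (edgeR adjusted p = 0.00019).

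SEMA4G, a membrane-spanning semaphorin that binds plexin-B2 in the mouse, was low in both groups and lower in SPOCK1 cells. It (ENSG00000095539, GRCh38 chr10:100969518-100985871, plus strand, 5253 bases of exon) had 43, 31, 56 and 56 counts in SPOCK1 libraries 1 to 4, against 102, 116, 106 and 92 counts in vector libraries 1 to 4. These were 1.23 ± 0.297 CPM in SPOCK1 cells and 2.72 ± 0.374 CPM in vector cells (SD, n = 4 each), without overlap. SEMA4G fell by 54.7%, a log2 fold change of -1.14 ± 0.23 (SE), with an edgeR adjusted p of 0.018. The call was lost without SPOCK1 library 2 (adjusted p = 0.0655) or 3 (0.0531), and without vector library 1 (0.0519) or 2 (0.0702).

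SEMA4G and MRPL43, a mitochondrial ribosomal protein gene on the opposite strand, share 1170 exonic bases, which are 22.3% of SEMA4G's exons. Whether the counting separated strands is not given in the sources used here, so reads from these bases cannot be assigned with certainty. MRPL43 had 54.1 ± 6.39 CPM in SPOCK1 cells and 52.4 ± 3.16 CPM in vector cells, and its log2 fold change was 0.05 ± 0.10 (edgeR adjusted p = 0.872).

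RefSeq lists SEMA4G with 2 start sites, and the promoter windows are shown because this gene had the lowest fold change among the members. Each runs from 250 bases before to 50 after a start on GRCh38.p14, plus strand, at chr10:100969254-100969553 and at chr10:100972279-100972578. Capitals mark a GC box (GGGCGG or its reverse complement CCGCCC) in the first and a TCF/LEF core (CTTTGA or its reverse complement TCAAAG) in the second.
SEMA4G start 1: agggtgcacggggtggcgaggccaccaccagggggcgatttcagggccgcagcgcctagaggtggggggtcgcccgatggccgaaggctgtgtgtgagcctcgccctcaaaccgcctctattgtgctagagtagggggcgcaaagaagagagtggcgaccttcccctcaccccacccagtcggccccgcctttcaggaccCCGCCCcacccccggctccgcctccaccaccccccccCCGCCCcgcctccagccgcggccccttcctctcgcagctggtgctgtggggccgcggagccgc
SEMA4G start 2: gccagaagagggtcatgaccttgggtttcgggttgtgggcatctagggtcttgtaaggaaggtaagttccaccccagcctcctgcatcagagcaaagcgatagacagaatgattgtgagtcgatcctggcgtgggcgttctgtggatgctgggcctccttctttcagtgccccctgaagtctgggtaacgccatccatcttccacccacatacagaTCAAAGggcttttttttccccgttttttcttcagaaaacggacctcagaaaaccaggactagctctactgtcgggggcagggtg
The first window held 2 GC boxes and no TCF/LEF core, and the second held 1 TCF/LEF core and no GC box. A GC box stood in 55 of 74 promoters of the 47 members matched, beside 44.95% of all 35116 RefSeq promoters of the same length, and a TCF/LEF core in 6 of 74, beside 12.92%. On either strand, CACCTG stood in 14 of the 74 (20.59% of all promoters), TATAAA in 3 (11.53%), CCAAT in 23 (34.61%) and TGACTCA in 0 (4.95%). These are matches of letters, and binding was not measured.

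None of the other tested semaphorins passed. Of the 13 tested, 12 had a log2 fold change below 0, beside 50.8% of all genes tested, and the median was -0.21. With the GC content and length offsets 11 of 13 were below 0, beside 7806 of all 15790 genes tested, with a median of -0.12. SEMA3A, the secreted axon repellent that binds neuropilin-1, had 4.36, 4.39, 5.08 and 4.50 CPM in SPOCK1 libraries, against 8.15, 6.00, 7.17 and 5.83 CPM in vector libraries. The groups did not overlap, but the edgeR test did not pass (log2 fold change -0.56 ± 0.15, adjusted p = 0.0857). DESeq2 gave SEMA3A an adjusted p of 0.0332, and edgeR with the GC content and length offsets gave 0.0273.

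SEMA3F, a secreted ligand of neuropilin-2, averaged 9.38 ± 1.41 CPM in SPOCK1 cells and 12.3 ± 1.55 CPM in vector cells (log2 fold change -0.39 ± 0.14, edgeR adjusted p = 0.212). SEMA3B, also secreted, averaged 55.5 ± 4.99 CPM in SPOCK1 cells and 57.4 ± 4.82 CPM in vector cells, and its 95% interval was -0.24 to 0.15 (log2). SEMA4C, a ligand of plexin-B2, had a log2 fold change of -0.19 (edgeR adjusted p = 0.429). SEMA4D, the ligand of plexin-B1, averaged 18.5 ± 1.29 CPM in SPOCK1 cells and 21.5 ± 1.24 CPM in vector cells (adjusted p = 0.356). None of these 4 passed. SEMA7A, which is lipid-anchored and binds plexin-C1, had a log2 fold change of 0.37 ± 0.20 (edgeR adjusted p = 0.447). It was the only tested semaphorin above 0 without offsets, and SEMA3B joined it with the GC content and length offsets.

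NRP1 rose in SPOCK1 cells and NRP2 did not pass the test. Neuropilin-1 binds SEMA3A and also serves as a co-receptor for VEGF. NRP1 (ENSG00000099250, GRCh38 chr10:33177492-33336262, minus strand, 11522 bases of exon) had 36.1, 44.7, 47.0 and 50.5 CPM in SPOCK1 libraries 1 to 4, against 35.1, 32.4, 28.1 and 32.1 CPM in vector libraries 1 to 4. Every SPOCK1 library lay above every vector library, though SPOCK1 library 1 and vector library 1 were close. The means were 44.6 ± 6.12 CPM in SPOCK1 cells and 31.9 ± 2.87 CPM in vector cells (SD, n = 4 each), 1.40-fold. Its log2 fold change was 0.48 ± 0.11 (SE), with an edgeR adjusted p of 0.0413. The call was lost when any library except SPOCK1 library 1 was left out, with adjusted p between 0.0582 and 0.14. Without SPOCK1 library 1 the adjusted p was 0.00501, and with libraries 2 and 4 of both groups only it was 0.00282.

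NRP2, the main receptor part for SEMA3F, had 30.6, 33.9, 35.8 and 38.4 CPM in SPOCK1 libraries, against 36.0, 34.0, 33.2 and 33.8 CPM in vector libraries. The groups overlapped, and the log2 fold change was 0.02 ± 0.09 with a 95% interval of -0.18 to 0.21 (edgeR adjusted p = 0.954). The ratio of NRP1 to NRP2 per kilobase was 1.43, 1.59, 1.58 and 1.59 in SPOCK1 libraries, against 1.17, 1.15, 1.02 and 1.15 in vector libraries. As a ratio of counts, not divided by length, it was 1.18 to 1.32 in SPOCK1 libraries and 0.848 to 0.973 in vector libraries. Both ratios are given as a description, with no test. With offsets for GC content and length NRP1 kept its call (log2 fold change 0.50, edgeR adjusted p = 0.00457).

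**Figure D3:**
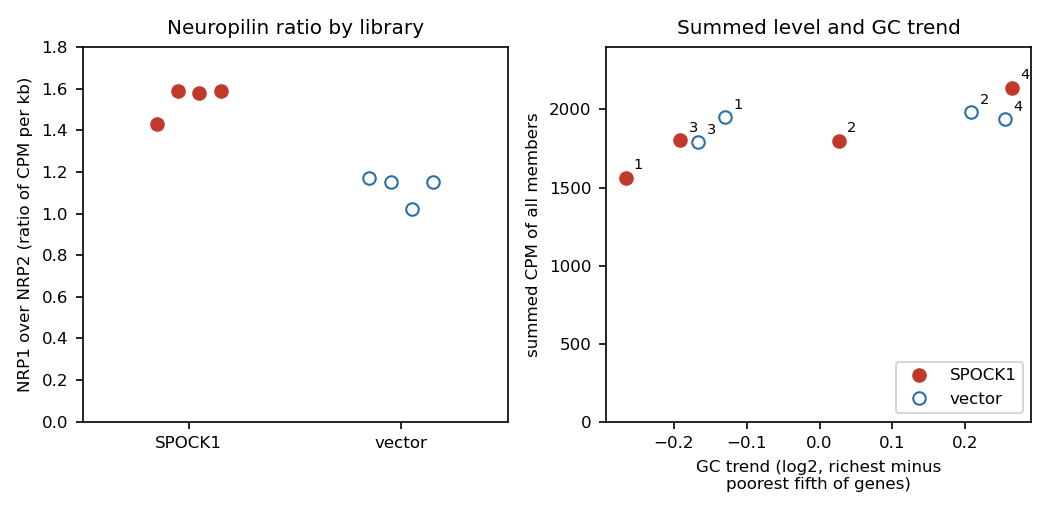
Left, NRP1 over NRP2 in CPM per kilobase in each library, 1.43 to 1.59 in SPOCK1 and 1.02 to 1.17 in vector libraries. Right, summed CPM of all members against each library's GC trend (log2 level of the GC-richest minus the GC-poorest set of genes), with library numbers.

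None of the 8 tested plexins was called by edgeR, DESeq2 or limma-voom, none had an unadjusted edgeR p under 0.05 (beside 13.7% of all genes tested), and their groups all overlapped (beside 8.23% of all genes tested whose groups did not). PLXNB2 and PLXNA1 made up most of the plexin RNA. PLXNB2, a receptor of SEMA4C, had 179, 214, 216 and 264 CPM in SPOCK1 libraries, against 258, 260, 226 and 255 CPM in vector libraries. PLXNA1, which works with neuropilins for secreted semaphorins, had 200.4, 242, 250.1 and 302 CPM in SPOCK1 libraries, against 251, 251, 233 and 237 CPM in vector libraries. For both, SPOCK1 library 1 was the lowest of all 8 and SPOCK1 library 4 the highest.

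The log2 fold change was -0.19 for PLXNB2 (95% interval -0.40 to 0.02, edgeR adjusted p = 0.408) and 0.03 for PLXNA1 (-0.18 to 0.24, adjusted p = 0.924). PLXNB1, the SEMA4D receptor, was at 5.89 ± 0.803 CPM per kilobase in SPOCK1 cells and 6.31 ± 0.307 CPM per kilobase in vector cells. PLXND1, the SEMA3E receptor, had 4.69 ± 0.89 CPM per kilobase in SPOCK1 cells and 4.95 ± 0.274 CPM per kilobase in vector cells, and PLXNA3 had 3.65 ± 0.497 in SPOCK1 cells and 3.89 ± 0.215 in vector cells on the same scale. PLXNB3 was near 1 CPM per kilobase in both groups. It shares 1432 exonic bases, 20.4% of its exons, with SRPK3 on the same strand, which had 143 counts over the 8 libraries. Reads from these bases cannot be assigned with certainty. PLXNC1 and PLXNA2 were below 0.1 CPM per kilobase. SEMA3E, the ligand of PLXND1, was thus at 0 counts, and PLXNC1, the receptor of SEMA7A, was scarce.

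EFNB3 was the ephrin that fell, and EFNB1, the most abundant ephrin, did not pass the test. Ephrin-Bs span the membrane, with a short cytoplasmic tail that signals back into the cell that carries them. EFNB3 (ENSG00000108947, GRCh38 chr17:7705202-7711378, plus strand, 3222 bases of exon) had 6.64, 7.36, 6.26 and 8.64 CPM in SPOCK1 libraries 1 to 4, against 12.9, 11.4, 11.9 and 12.6 CPM in vector libraries 1 to 4. The groups were far apart relative to their spread, 7.22 ± 1.05 CPM in SPOCK1 cells and 12.2 ± 0.673 CPM in vector cells (SD, n = 4 each). EFNB3 fell by 40.9%, a log2 fold change of -0.76 ± 0.13 (SE), with an edgeR adjusted p of 0.00528 (0.00143 with the GC content and length offsets).

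**Figure D4:**
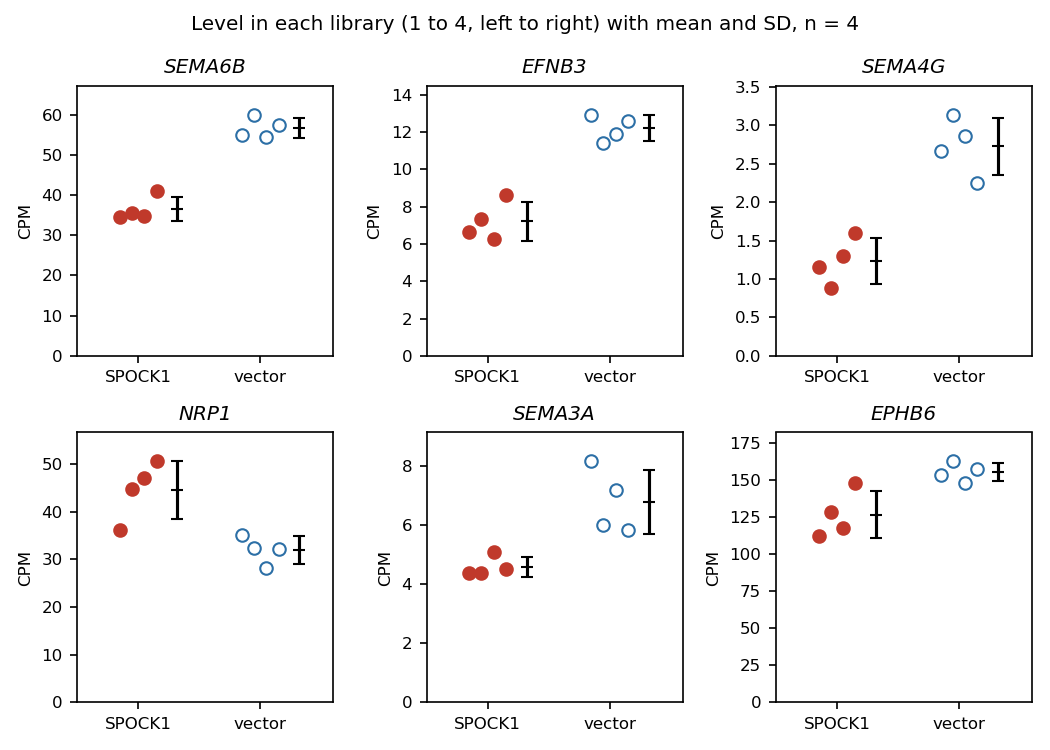
CPM in each library (1 to 4 from left to right) with mean and SD for the 4 called members and for SEMA3A and EPHB6, which did not pass without offsets. SEMA6B, EFNB3 and SEMA4G lie lower in every SPOCK1 library, and NRP1 lies higher.

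The 3 ephrin-B genes are related, so reads that match more than 1 of them are of uncertain origin. Their last 99 coding bases, stop codon included, from GENCODE 29 transcripts on GRCh38, are shown for that reason, with capitals for the 77 bases that are the same in all 3.
EFNB1: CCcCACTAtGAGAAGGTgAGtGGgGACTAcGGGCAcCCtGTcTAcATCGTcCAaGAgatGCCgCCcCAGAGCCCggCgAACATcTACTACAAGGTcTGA
EFNB2: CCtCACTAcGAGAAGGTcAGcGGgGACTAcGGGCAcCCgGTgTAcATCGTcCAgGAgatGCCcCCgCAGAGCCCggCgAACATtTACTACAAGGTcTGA
EFNB3: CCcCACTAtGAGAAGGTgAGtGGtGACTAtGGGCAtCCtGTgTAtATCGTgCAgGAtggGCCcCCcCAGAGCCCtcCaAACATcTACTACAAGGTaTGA
EFNB3 was identical to EFNB1 at 84.8% of these bases, with a longest identical run of 23 bases, and to EFNB2 at 80.8%. Reads that matched more than 1 copy were treated in a way not given in the sources used here. EFNB1 and EFNB3 had log2 fold changes of opposite sign, but the 95% interval of EFNB1 was -0.03 to 0.34, so its direction was not resolved. Whether reads shared between these genes had a part in the EFNB3 difference was not tested.

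EFNB1 had 299, 348, 347 and 392.4 CPM in SPOCK1 libraries, against 315, 339, 284 and 306 CPM in vector libraries. The groups overlapped, and its log2 fold change was 0.16 ± 0.09 (95% interval -0.03 to 0.34, edgeR adjusted p = 0.447). EFNB1 made up 79.5% to 84.2% of the ephrin CPM per kilobase in SPOCK1 libraries and 76.3% to 80.3% in vector libraries. EFNB3 made up 1.82% to 2.23% of the ephrin-B CPM per kilobase in SPOCK1 libraries, against 3.35% to 4.13% in vector libraries. EFNB2, the ligand of EPHB4, was near 1 CPM in both groups, and its 95% interval was -0.42 to 0.95 (log2), so its direction was not resolved at this depth.

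The ephrin-As are lipid-anchored. EFNA3 had 1.90, 2.14, 1.99 and 2.00 CPM in SPOCK1 libraries, against 3.00, 2.67, 2.99 and 2.90 CPM in vector libraries. The groups did not overlap, but the edgeR test did not pass (log2 fold change -0.53 ± 0.18, adjusted p = 0.196). EFNA1, a ligand of EphA2, averaged 15.0 ± 0.739 CPM in SPOCK1 cells and 18.0 ± 1.95 CPM in vector cells, which did not pass (edgeR adjusted p = 0.302). EFNA4 averaged 11.99 ± 0.714 CPM per kilobase in SPOCK1 cells and 12.6 ± 1.29 CPM per kilobase in vector cells. EFNA3 shares 853 exonic bases, 44.7% of its exons, with AL691442.1 on the same strand. That gene had 0 counts in all 8 libraries, and it also shares 189 bases (15.0%) with EFNA4. Reads from these bases cannot be assigned with certainty. Over the 8 tested ephrins the median log2 fold change was -0.16.

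None of the 9 tested Eph receptors was called by edgeR, DESeq2 or limma-voom, while 2 (EPHB6 and EPHA1) had an unadjusted edgeR p under 0.05 (22.2%, beside 13.7% of all genes tested). Their median log2 fold change was -0.07. EPHB6, which lacks kinase activity, had 112, 128, 117 and 148 CPM in SPOCK1 libraries, against 154, 163, 148 and 158 CPM in vector libraries. Only SPOCK1 library 4 reached the lowest vector library. The log2 fold change was -0.30 ± 0.09 (edgeR adjusted p = 0.131), and it passed without SPOCK1 library 4 (adjusted p = 0.0252) and with the GC content and length offsets (-0.23, adjusted p = 0.0268).

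EPHA1 had 12.4, 14.6, 15.6 and 16.9 CPM in SPOCK1 libraries, against 17.8, 17.7, 17.9 and 21.0 CPM in vector libraries. The groups did not overlap, and the edgeR test did not pass (log2 fold change -0.33 ± 0.12, adjusted p = 0.226). EPHA1 shares 82 exonic bases, 1.73% of its exons, with ZYX on the opposite strand. ZYX had 73943 counts over the 8 libraries, against 5108 for EPHA1, and a log2 fold change of 0.19 ± 0.09 (edgeR adjusted p = 0.35). Reads from these bases cannot be assigned with certainty, and their part in the EPHA1 difference was not tested. EPHA2, the abundant receptor of ephrin-As in epithelia, was at 34.6 ± 6.0 CPM per kilobase in SPOCK1 cells and 35.6 ± 2.94 CPM per kilobase in vector cells (log2 fold change -0.04, 95% interval -0.26 to 0.19). EPHB4, the receptor of ephrin-B2, was at 20.9 ± 2.94 CPM per kilobase in SPOCK1 cells and 23.1 ± 0.541 CPM per kilobase in vector cells (-0.14, edgeR adjusted p = 0.512). EPHA4, which binds ephrins of both classes, averaged 35.6 ± 2.33 CPM in SPOCK1 cells and 31.8 ± 4.12 CPM in vector cells, with a log2 fold change of 0.16 (95% interval -0.05 to 0.38).

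EPHB2 and EPHB3, the crypt receptors that are Wnt targets in the mouse intestine, showed no call. EPHB2 had 29.6, 31.3, 32.2 and 44.0 CPM in SPOCK1 libraries, against 36.0, 38.6, 32.5 and 36.5 CPM in vector libraries. Its log2 fold change was -0.07 with a 95% interval of -0.31 to 0.18. EPHB3 averaged 16.5 ± 2.18 CPM in SPOCK1 cells and 17.4 ± 2.26 CPM in vector cells, with a log2 fold change of -0.08 and a 95% interval of -0.34 to 0.18. The groups overlapped for both genes.

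Other genes of these pathways were read from 4 lists chosen with earlier results of these data known, and their calls stand beside 0.247% higher and 0.798% lower over all genes tested. Of 43 tested partners and effectors of plexins and neuropilins (small GTPases, MICAL and CRMP proteins), none was called by edgeR, DESeq2 or limma-voom, 5 had an unadjusted edgeR p under 0.05 (beside 13.7% of all genes tested), and the median log2 fold change was -0.0046. Of 17 tested co-receptors and other ligands, 3 had an unadjusted edgeR p under 0.05. DESeq2 and limma-voom each called 1, and edgeR called 1, which was lower. That was PTK7, a pseudokinase that works with plexin-A1 in the frog. PTK7 averaged 115 ± 15.3 CPM in SPOCK1 cells and 161 ± 4.14 CPM in vector cells, with a log2 fold change of -0.49 ± 0.09 (edgeR adjusted p = 0.0102).

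Of 51 tested effectors and processing enzymes of Eph receptors and ephrins, 1 was lower by edgeR, and the median was -0.04. DESeq2 called 2 and limma-voom 1, beside 378 and 149 of the 15790 genes tested. An unadjusted edgeR p under 0.05 was seen for 8 (beside 13.7% of all genes tested). GRB7, an adaptor that binds Eph receptors, had 12.8, 15.0, 15.6 and 15.3 CPM in SPOCK1 libraries, against 22.3, 26.4, 24.0 and 25.7 CPM in vector libraries. GRB7 fell by 40.4%, with a log2 fold change of -0.75 ± 0.10 (edgeR adjusted p = 0.00121). Of 23 tested genes of other guidance families, 1 was higher and 1 lower by edgeR. DESeq2 called 3 and limma-voom 1, and 6 had an unadjusted edgeR p under 0.05. SLIT1, a secreted ligand of ROBO receptors, averaged 38.0 ± 3.06 CPM in SPOCK1 cells and 27.3 ± 1.604 CPM in vector cells (log2 fold change 0.48 ± 0.09, edgeR adjusted p = 0.0157), and the call was lost without SPOCK1 library 2 or 3 or vector library 3 (adjusted p 0.083, 0.0519 and 0.0618). LINGO1, part of the Nogo receptor complex, averaged 1.56 ± 0.232 CPM in SPOCK1 cells and 2.93 ± 0.529 CPM in vector cells (-0.91 ± 0.21, edgeR adjusted p = 0.0465), and this call was lost when any library except vector library 1 was left out, with adjusted p up to 0.139, and in limma-voom (0.0668).

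Levels of the members also differed between libraries of 1 group. Their summed level was 1564, 1799, 1805 and 2139 CPM in SPOCK1 libraries 1 to 4, against 1949, 1982, 1792 and 1937 CPM in vector libraries 1 to 4. SPOCK1 library 1 was the lowest of all 8 for 20 of the 40 tested members, and SPOCK1 library 4 was the highest for 15. The GC trend, the log2 level of the GC-richest minus the GC-poorest genes, was -0.266, 0.0261, -0.191 and 0.264 in SPOCK1 libraries 1 to 4, against -0.129, 0.208, -0.166 and 0.255 in vector libraries 1 to 4. In both groups the GC trend was negative in libraries 1 and 3 and positive in libraries 2 and 4. What sets these library numbers apart was not tested. The part of the GC trend in each gene's difference was tested only through the offsets.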

How the data were processed

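RNA was measured in 8 SW480 libraries, 4 with SPOCK1-flag and 4 with vector, grouped by their titles. The deposited values are raw whole-number counts for each gene. The submitters' processing notes list CASAVA, HISAT2 2.0.5 and featureCounts 1.5.0-p3. How strand and multiply matching reads were handled, and the build, is not given in the sources used here. Start, end and strand of all 58735 genes were identical to those of GENCODE 29 on GRCh38. In every library more genes had 2 counts (1513 to 1726) than 1 count (974 to 1110), so counts may not be independent fragments.

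The groups were tested by edgeR 4.0.16 under R 4.3.3 (filterByExpr with minimum count 10 and minimum total 15, TMM factors, quasi-likelihood F test, Benjamini-Hochberg adjustment over 15790 genes). Standard errors and 95% intervals come from the F statistic. CPM use TMM-scaled library sizes, and CPM per kilobase divide by the deposited exonic length. Alternatives were DESeq2 1.42.0, voom in limma 3.58.1, RLE or upper-quartile factors, other filters, length offsets, a replicate block, each library left out and subsets of libraries. GC content and length offsets were natural splines with 5 df. Offsets on GC content alone were chosen after seeing the data.

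The members and lists were chosen with earlier results of these data known. Named were every called member, the 3 members of each family with the highest CPM per kilobase in vector libraries and the member with the smallest p, and every called gene of each pathway list. Members named beyond this rule, EPHB2 and EPHB3 among them, were picked with their values in view. Promoter sequences are from RefSeq (GRCh38.p14), matched by symbol for 47 of 53 members.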

Additional observations from a re-analysis of the deposited data

Results flagged for a closer look

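Of 80 groups of 4 libraries (40 members in each of the 2 groups), 3 held a library that stood apart by Dixon's test at the 95% level, and chance flags about 1 in 20 groups. EFNB2 had 1.36 CPM in SPOCK1 library 1, beside 0.741 to 0.827 CPM in the other SPOCK1 libraries. PLXNB2 had 226.0 CPM in vector library 3, beside 255 to 260.4 CPM in the other vector libraries. EPHA1 had 21.0 CPM in vector library 4, beside 17.7 to 17.9 CPM in the other vector libraries. None of these 3 genes was called.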

How the results depend on the processing

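Over 20 alternatives SEMA6B kept its call in 19 and EFNB3 in 18, SEMA4G in 13 and NRP1 in 11. With libraries 1 and 3 only, no member was called in either direction (0 higher, 0 lower) and 8 genes were called in all, beside 165 with all libraries. With libraries 2 and 4 only, 1 member was higher (NRP1, adjusted p = 0.00282), 1 was lower (SEMA6B, 0.000449) and 140 genes were called in all, while EFNB3 (0.0612) and SEMA4G (0.142) were not called. The cause of the difference between these subsets was not tested. Deviations of same-numbered libraries from their group means correlated at -0.0739, 0.0317, 0.0277 and 0.0817 for numbers 1 to 4. SPOCK1 libraries 1, 3 and 4 correlated best with vector libraries 3 (0.159), 1 (0.116) and 2 (0.105). Only SPOCK1 library 2 correlated best with its own number. Such correlations cannot show that same-numbered libraries were unrelated. In both groups the GC trend was negative for numbers 1 and 3 and positive for 2 and 4. With the replicate block 0 members were higher, 2 were lower and 115 genes were called. Its edgeR adjusted p was 0.093 for NRP1 and 0.072 for SEMA4G, and LINGO1 also lost its call (0.0777). Leaving out 1 library gave 0 to 1 higher members, 2 to 4 lower members and 89 to 237 genes called. Lower members were 5 with GC content and length offsets (503 genes called) and 5 with GC content offsets (386). DESeq2 called 378 genes and the fit with no filter beyond 1 count 399. Among the members named by rule, changes of sign of the log2 fold change were seen only in members that passed under no alternative. SEMA3B was 0.0595 with GC content and length offsets, 0.0358 with GC content offsets, and -0.1105 to 0.0082 with 1 library left out. PLXNB1 was 0.0481 with libraries 2 and 4 and 0.0274 with both offsets. PLXNA1 was -0.1033 with libraries 1 and 3, and -0.0738 to 0.1197 with 1 library left out. NRP2 was -0.0568 with libraries 1 and 3, -0.0017 with GC content offsets and -0.0329 to 0.0712 with 1 library left out. EFNA4 was 0.0213 with libraries 1 and 3. EPHA2 was 0.0333 with libraries 2 and 4, 0.0146 with both offsets, 0.0113 with GC content offsets, and -0.1503 to 0.0479 with 1 library left out. The cause of these changes was not tested. Members under about 1 CPM, such as EFNB2, SEMA6C and PLXNA2, have intervals too wide to show a direction. By vector CPM not divided by length, SEMA6B ranked 2 among semaphorins, NRP1 2 among neuropilins and EPHA2 3 among Eph receptors. PLXNB2 and EFNB1 kept rank 1 in their families.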
